A study of Mus musculus with 40 samples.

Results

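The TaqMan assays Mm01191142_m1, Mm00500848_m1, Mm00549170_m1, Mm00500226_m1 and Mm01614382_m1 were followed in mouse colonic mucosa, 5 of the 224 assays in the deposited table. They were chosen by their lower values after mono-association with Escherichia coli CEC than with Escherichia coli Nissle, so that difference is a description here and carries no test. Of 214 assays ranked by the size of this difference over its standard error, they held places 1, 2, 5, 7 and 40. The assay IDs are not paired with genes in the files used here, so assays are called by ID and no gene role is given.

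Each of the 4 groups held 10 samples. Germ-free mice (germfree in the labels, the control) carried no microbes, mice mono-associated with E. coli CEC or with E. coli Nissle carried 1 bacterial strain for 21 days, and conventional mice (CV) form a group for which no colonisation time was given. The strain, age and genotype of the mice were not given in the sources used here. The series' design text speaks of equal amounts of RNA pooled over mice, while 40 samples are listed, so a sample may not be 1 mouse. The tests below therefore speak of the variation among the listed samples, part of which may be technical.

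A mouse reared without microbes has a mucosa that has met no live bacteria, and colonisation with a single strain shows what that strain alone does to the tissue. E. coli is an early and common coloniser of the mammalian gut, and Nissle is a strain long used as a probiotic. Mucosa contains absorptive, goblet and immune cells together, so fewer cells of a type and less RNA per cell cannot be told apart in these samples. A TaqMan assay pairs PCR primers with a fluorescent probe, and its threshold cycle (Ct) falls as the amount of template rises. Here log2 relative expression is the median Ct of the sample, taken over the 203 assays without any undetermined well, minus the Ct of the assay, so a higher value means more template. Levels are compared within an assay only.

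Every one of the 200 values of the 5 assays was a measured Ct, between 16.59 and 26.91 cycles, and none was undetermined or filled in. Conventional samples had the lowest sample median Ct, 21.96 ± 0.288 cycles (SD, n = 10), against 22.30 ± 0.488 for Nissle, 22.47 ± 0.309 for germ-free and 22.72 ± 0.838 for CEC. CEC replicates 8 and 6 had the highest sample medians of the series, 24.27 and 23.79 cycles. CEC replicate 6 also stood apart in 2 of the 5 assays, Mm00549170_m1 and Mm01614382_m1, where CEC differences are given with and without it.

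The 5 assays did not share one pattern against the reference groups. Mm01191142_m1 and Mm00500226_m1 had CEC as the group that lay below both germ-free and conventional means while Nissle lay between them, though in Mm00500226_m1 the place of Nissle against conventional turned with the scale. Mm00549170_m1 was the reverse: Nissle lay above both and CEC between them. In Mm00500848_m1 the strains lay on opposite sides of both references. In Mm01614382_m1 both strains lay below both references, CEC the farther.

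**Figure D1:**
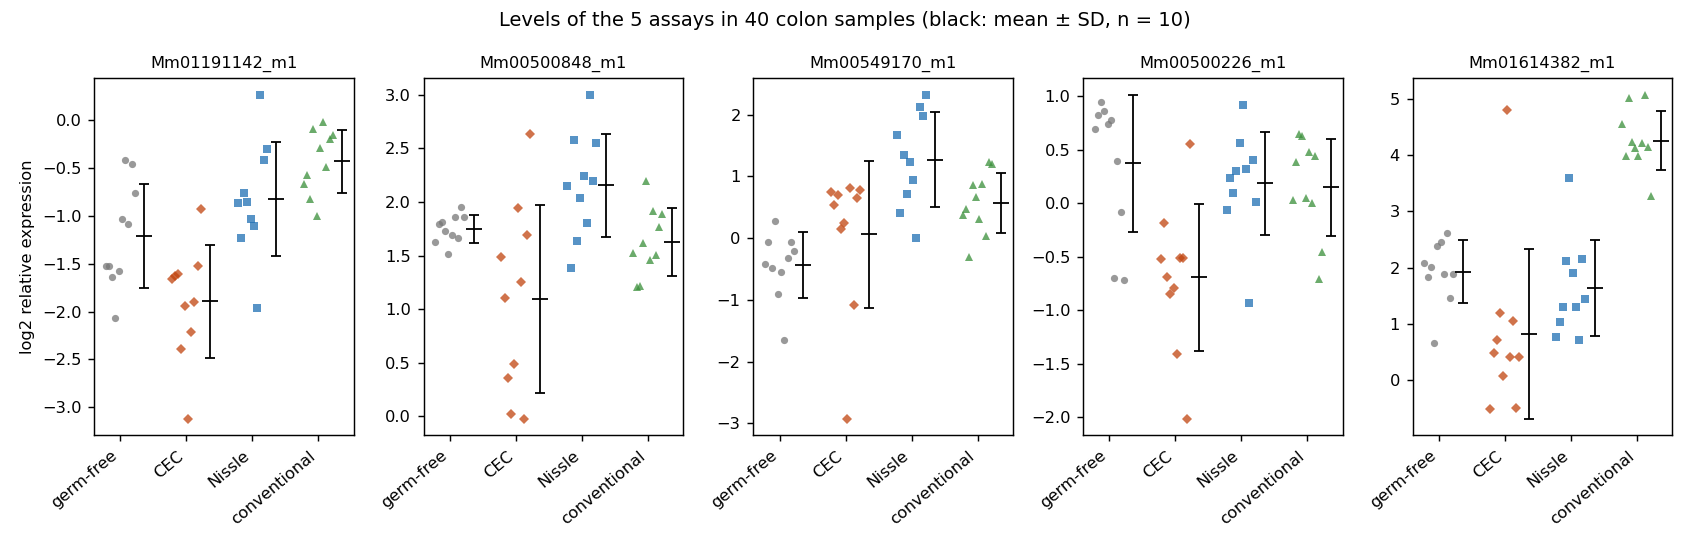
Log2 relative expression of the 5 assays (vertical axes, a separate scale for each) in the 40 samples, by group. Points are samples and black marks are the mean ± SD of 10 samples. Among the 5 assays, only Mm01614382_m1 has a group, conventional, that lies wholly above germ-free samples. How common such separation was among the other assays was not counted.

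Because each strain's own mean entered the choice of assays, its distance from a reference group is described with its standard error and no p. The tested measures do not include the difference between the strains: conventional against germ-free samples, and the midpoint of the CEC and Nissle means against either reference. The midpoint is uncorrelated with that difference only where both strains vary alike. The SD in CEC exceeded that in Nissle in Mm01614382_m1 (1.51 against 0.855), Mm00549170_m1 (1.19 against 0.766) and Mm00500848_m1 (0.876 against 0.479). It also did in Mm00500226_m1 (0.683 against 0.483), but not in Mm01191142_m1. Where CEC varied more, the choice of assays may have drawn the midpoint down, so its p is not free of that choice. The measures were tested with limma in 1 fit over all assays and 40 samples, two-sided, with Benjamini-Hochberg adjustment over all assays tested and a threshold of 0.05. Conventional differed from germ-free in 3 of the 5 assays, all higher, beside 17.8% of the 214 assays tested. The midpoint differed from germ-free in 1 of the 5, higher, beside 9.86% of 213 assays. It differed from conventional in 2 of the 5, both lower, beside 32.2% of 214 assays. The median difference over the tested assays was -0.18 log2 units for conventional minus germ-free, 0.02 for the midpoint minus germ-free and 0.23 for the midpoint minus conventional.

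Mm01191142_m1 was lowest in CEC and highest in conventional mucosa. CEC samples ran from -3.12 through a median of -1.78 to -0.93 log2 units, and Nissle samples from -1.96 through -0.86 to 0.26. All 10 CEC samples lay below the Nissle mean, yet the ranges of the strains overlapped. Germ-free samples ran from -2.07 through -1.30 to -0.42 and conventional samples from -1.01 through -0.40 to -0.03. Of the 10 CEC samples 9 lay below every conventional sample, but only 3 lay below every germ-free sample. The means rose from -1.89 ± 0.591 in CEC (SD, n = 10) over -1.21 ± 0.546 in germ-free and -0.83 ± 0.597 in Nissle to -0.43 ± 0.332 in conventional samples. The step from CEC to germ-free was larger than either SD, whereas those from germ-free to Nissle and from Nissle to conventional were not. Without CEC replicate 6, the lowest sample, CEC minus germ-free was -0.545 and no longer exceeded the germ-free SD of 0.546.

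For Mm01191142_m1, CEC lay 0.68 log2 units below germ-free (standard error 0.24) and 1.46 below conventional, a difference that was -2.22 without normalization. Nissle was 0.38 above germ-free and 0.39 below conventional, with the same standard error. CEC minus Nissle was -1.06 log2 units, a 2.09-fold difference. Conventional samples were 1.71-fold higher than germ-free, a log2 difference of 0.78 (limma, adjusted p = 0.0271), and all 10 lay above the germ-free mean. That call ended without germ-free replicate 20 (limma, adjusted p = 0.058), conventional replicate 9 (0.0506) or conventional replicate 10 (0.0516). It held under every alternative that left no single sample out, such as the fit of only the groups compared (limma, adjusted p = 0.00854). The midpoint of the strains differed from conventional by -0.93 log2 units (limma, adjusted p = 0.000739) and passed under each alternative run. Against germ-free the midpoint differed by -0.15 log2 units with a standard error of 0.21 (adjusted p from limma, 0.669).

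Mm00500226_m1 had a low CEC group and 3 groups with means close to each other. Even so, 6 of 10 germ-free samples lay above every conventional sample. CEC samples ran from -2.02 through -0.61 to 0.55 log2 units, and 9 of 10 lay below the mean of Nissle, of germ-free and of conventional samples alike. Nissle ran from -0.93 through 0.27 to 0.92, germ-free from -0.72 through 0.72 to 0.94, and conventional from -0.71 through 0.21 to 0.64. The exception in CEC was replicate 10, at 0.55. Means were -0.69 ± 0.683 in CEC (SD, n = 10), 0.15 ± 0.456 in conventional, 0.18 ± 0.483 in Nissle and 0.37 ± 0.643 in germ-free samples. Only the step from CEC to conventional exceeded the larger SD of the neighbouring groups.

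In Mm00500226_m1 CEC was 1.07 log2 units below germ-free and 0.84 below conventional, each with a standard error of 0.26. Without normalization CEC minus conventional was -1.61. Nissle differed from germ-free by -0.19 and from conventional by 0.04, both smaller than that standard error. The latter was -0.38 on the scale of the 10 most stable assays, -0.30 without normalization and as low as -0.06 with 1 sample left out, so Nissle then lay below both references. CEC minus Nissle was -0.88, or 1.84-fold. Conventional minus germ-free was -0.22 (limma, adjusted p = 0.597), and the sign turned with the stable assays (0.04) and without normalization (0.28). The midpoint of the strains was -0.63 log2 units from germ-free with a standard error of 0.22, which did not pass (limma, adjusted p = 0.068), and -0.40 from conventional (0.168).

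Germ-free samples themselves were uneven in Mm00500226_m1. The samples numbered 10 to 12 lay between 0.69 and 0.94 log2 units and those numbered 20 to 22 between 0.74 and 0.86, while those numbered 30 to 33 lay between -0.72 and 0.39. What these numbers stand for is not given in the sources used here. The midpoint passed against germ-free without germ-free replicate 30 (limma, adjusted p = 0.0259) or 33 (0.0195), without CEC replicate 10 (0.0253) or Nissle replicate 6 (0.0455), and with sample quality weights (0.000195). The same number series differed in Mm01191142_m1, where replicates 30 to 33 lay between -1.09 and -0.42, replicates 10 to 12 between -1.64 and -1.52 and replicates 20 to 22 between -2.07 and -1.03. In this order their medians were -0.61, -1.52 and -1.58, against medians of -1.78 in CEC and -0.40 in conventional samples. How far CEC and conventional samples lay from germ-free in this assay thus differed with the series, and was not tested by series.

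Mm00549170_m1 was the assay in which the Nissle mean, rather than the CEC mean, lay outside both references. Nissle samples ran from 0.00 through a median of 1.28 to 2.32 log2 units, and germ-free samples from -1.65 through -0.37 to 0.28. Of the 10 Nissle samples 9 lay above every germ-free sample. Conventional samples ran from -0.30 through 0.57 to 1.23, and 6 Nissle samples lay above all of them. CEC samples ran from -2.93 through 0.59 to 0.81, and all 10 lay below the Nissle mean. Germ-free samples averaged -0.44 ± 0.534 (SD, n = 10), CEC 0.06 ± 1.19, conventional 0.57 ± 0.492 and Nissle 1.27 ± 0.766. No step between neighbours in this order exceeded the larger SD of the pair. Nissle replicates 1, 3, 8, 9 and 10, which had the highest sample median Ct of that group, averaged 1.89. The other 5 Nissle samples averaged 0.66, near the conventional mean.

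For Mm00549170_m1, Nissle lay 1.71 log2 units above germ-free, or 3.27-fold, and 0.70 above conventional, with a standard error of 0.35. CEC lay 0.50 above germ-free and 0.51 below conventional over all samples, and 0.83 above and 0.18 below without CEC replicate 6. Nissle minus conventional was 0.28 with the stable assays and 0.36 without normalization. The midpoint was 2.15-fold above germ-free (1.10, limma, adjusted p = 0.0143), with 10 of 10 Nissle and 8 of 10 CEC samples above the germ-free mean. That call ended without normalization, where the difference stood at 1.06 (standard error 0.39, limma, adjusted p = 0.146). Conventional was 2.01-fold above germ-free (1.01, limma, adjusted p = 0.0422), and all 10 of its samples lay above the germ-free mean. The conventional call ended without any 1 of germ-free replicates 10, 11, 12, 21, 22, 30, 31 and 33 or conventional replicates 1, 2, 4, 7, 9 and 10, where the adjusted p in limma lay between 0.051 and 0.0844. It held under every alternative that left no single sample out (limma, adjusted p from 0.000831 to 0.0479). With only the groups compared in the fit the adjusted p from limma was 0.00424, and without CEC replicate 6 it was 0.00936. The midpoint minus conventional was 0.10 (standard error 0.30, adjusted p from limma = 0.832), and its sign turned when the 10 most stable assays set the scale (-0.25) and without normalization (-0.45).

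The distance between the strains in Mm00549170_m1 rested in part on CEC replicates 6 and 8. Replicate 6 lay at -2.93 and replicate 8 at -1.09, against 0.15 to 0.81 in the other 8 CEC samples. CEC minus Nissle was -1.21 log2 units over all samples, -0.88 without replicate 6 and -0.69 without both. Without both, the CEC mean was 0.58 ± 0.249 (SD, n = 8) and CEC differed from conventional samples by 0.01 in place of -0.51 and from germ-free samples by 1.01 in place of 0.50. These were also the CEC samples with the highest sample median Ct, and the part of template amount in their low values was not tested.

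Mm00500848_m1 had the tightest germ-free group of the 5 assays, and it alone among them had the strain means on opposite sides of both references. Germ-free samples ran from 1.52 through 1.76 to 1.95 log2 units, an SD of 0.130 that only 1 of the 153 assays measured in every sample fell below. CEC samples ran from -0.03 through 1.18 to 2.63, with 7 of 10 below every germ-free sample. Nissle samples ran from 1.38 through 2.17 to 3.0, with 7 of 10 above every germ-free sample. The exceptions crossed over: CEC replicate 10, at 2.63, lay above every germ-free and conventional sample, and Nissle replicate 2, at 1.38, lay below every germ-free sample. Conventional samples ran from 1.21 through 1.57 to 2.20.

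Mean levels of Mm00500848_m1 were 1.10 ± 0.876 in CEC (SD, n = 10), 1.63 ± 0.315 in conventional, 1.75 ± 0.130 in germ-free and 2.15 ± 0.479 in Nissle samples, and no neighbouring pair differed by more than its larger SD. CEC was 0.65 log2 units below germ-free and 0.53 below conventional, while Nissle was 0.40 above germ-free and 0.53 above conventional, each with a standard error of 0.24. Without normalization CEC minus conventional was -1.30 and Nissle minus conventional 0.19, and with the 10 most stable assays they were -0.82 and 0.11. CEC minus Nissle was -1.06, or 2.08-fold. The midpoint differed from germ-free by -0.12 and from conventional by -0.00 log2 units, with a standard error of 0.21 (adjusted p from limma = 0.737 and 0.988). Conventional minus germ-free was -0.12 (limma, adjusted p = 0.781), with the opposite sign under the 10 most stable assays (0.14) and without normalization (0.39).

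Mm01614382_m1 showed its main difference between conventional and all other mucosa rather than between the strains. Conventional samples ran from 3.26 through 4.18 to 5.07 log2 units, wholly above the germ-free samples, which ran from 0.67 through 1.96 to 2.61. Separation of this kind was not counted over the other assays, so its rarity is not known. Nissle samples ran from 0.71 through 1.38 to 3.59 and CEC samples from -0.51 through 0.46 to 4.80. Apart from Nissle replicate 5, at 3.59, and CEC replicate 6, at 4.80, all mono-associated samples lay below every conventional sample. The means were 0.82 ± 1.51 in CEC (SD, n = 10), 1.63 ± 0.855 in Nissle, 1.93 ± 0.558 in germ-free and 4.25 ± 0.526 in conventional samples, and only the last step exceeded the larger SD.

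Conventional mucosa had 5.01-fold more Mm01614382_m1 than germ-free mucosa (2.33 log2 units, standard error 0.41, limma, adjusted p = 7.91e-05). The midpoint of the strains was 8.16-fold below conventional (-3.03, standard error 0.36, limma, adjusted p = 2.85e-08). Both calls held under every alternative run. CEC varied more than Nissle in this assay, so the p of the midpoint is not free of the choice of assays. The midpoint was -0.70 from germ-free (limma, adjusted p = 0.214), but -0.92 without CEC replicate 6, where it passed (limma, adjusted p = 0.00836). It also passed without CEC replicates 6 and 8 (0.00569) and with sample quality weights (0.00112). CEC lay 1.11 below germ-free and 3.44 below conventional, Nissle 0.30 below germ-free and 2.62 below conventional, with a standard error of 0.41. Without CEC replicate 6 the CEC mean was 0.38 ± 0.602 (SD, n = 9), and CEC minus germ-free was -1.55 and CEC minus conventional -3.88. CEC minus Nissle was -0.81 over all samples and -1.26 without CEC replicate 6, but -0.60 once Nissle replicate 5 was left out and -0.51 once replicates 4 and 5 of Nissle both were. In the latter setting Nissle minus germ-free was -0.60.

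**Figure D2:**
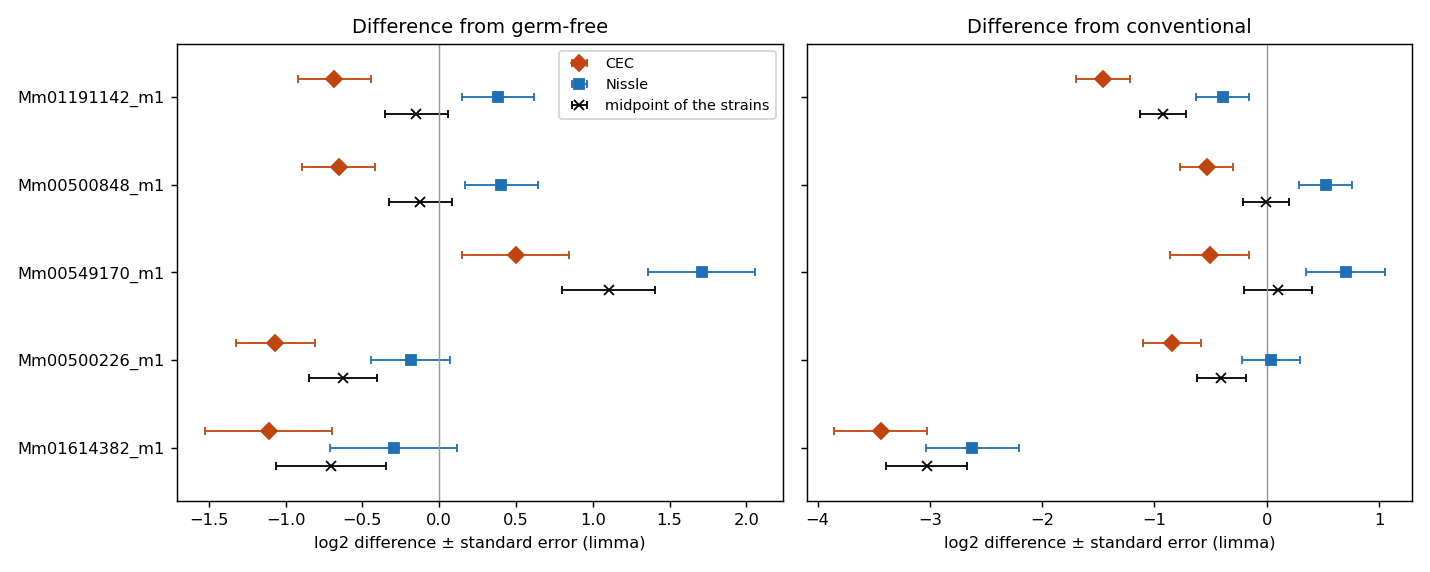
Log2 difference of CEC, Nissle and the midpoint of both from germ-free samples (left) and from conventional samples (right), in log2 units, for the 5 assays. Symbols are limma estimates over 10 samples a group and bars are standard errors. CEC lies left of Nissle throughout, which the choice of assays fixed. Against germ-free the midpoint runs from -0.70 in Mm01614382_m1 to 1.10 in Mm00549170_m1, and against conventional from -3.03 to 0.10 in the same assays.

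The number of assays that lay low in each sample is a description, since the assays were chosen by lower values in CEC than in Nissle. Set against the germ-free means, 7 CEC samples had 4 of the 5 assays below, 1 had all 5, 1 had 3 and 1 had 1. In each of those 7 the same 4 assays lay below, all but Mm00549170_m1. In Nissle 5 samples had 2 assays below, 2 had 0, and 1 sample each had 1, 3 and 4. In conventional samples 9 had 1 assay below and 1 had 2. CEC replicate 10 was the CEC sample with 1 low assay, Mm01614382_m1, and CEC replicate 8 was the one with all 5.

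**Figure D3:**
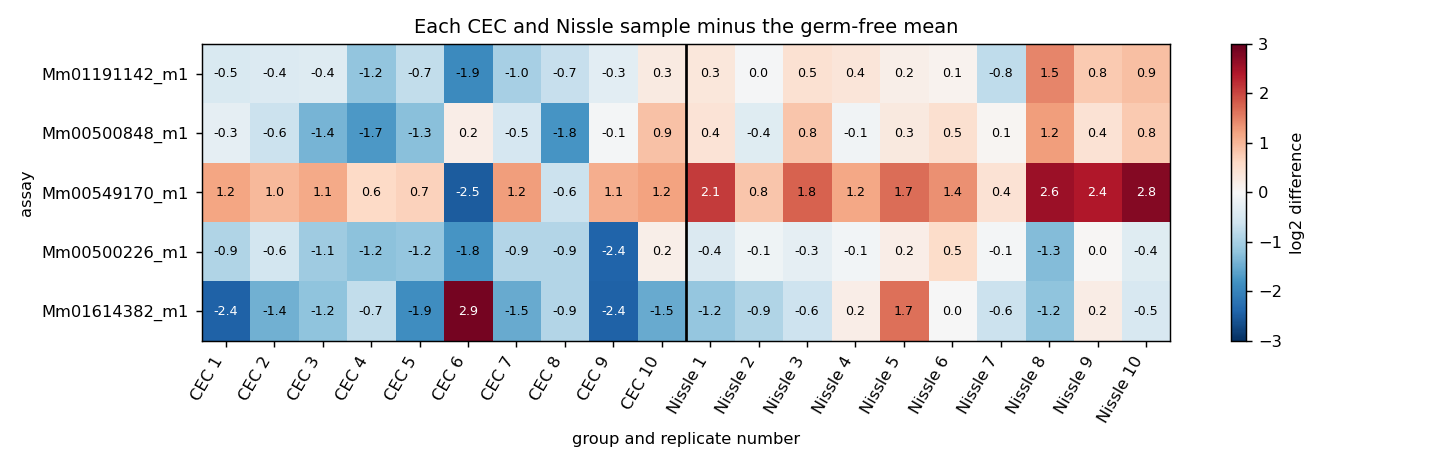
Log2 difference of every CEC and Nissle sample (columns, by replicate number) from the germ-free mean in the 5 assays (rows), with the colour scale from -3 to 3. CEC replicate 6 is the only CEC sample with Mm01614382_m1 above the germ-free mean, at 2.87, and all Nissle samples are above it in Mm00549170_m1.

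Within groups the 5 assays did not vary as one unit. Over the deviations of the 40 samples from their group means, Pearson's r between pairs of assays was above 0 in 5 of 10 pairs and ran from -0.67, between Mm00549170_m1 and Mm01614382_m1, to 0.54, between Mm01191142_m1 and Mm00549170_m1. Without CEC replicate 6 the first was -0.41 and the second 0.41. These values share a normalizer within a sample and are given as a description. Among the 10 Nissle samples, Mm01191142_m1, Mm00500848_m1 and Mm00549170_m1 went together, with r of 0.74, 0.78 and 0.89 for their 3 pairs, while Mm00500226_m1 had r from -0.64 to -0.49 with them.

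The Nissle values also went with the sample median Ct, which is the quantity each level is taken from. Nissle replicates 1, 3, 8, 9 and 10 had sample medians of 22.65 to 22.79 cycles and the other 5 of 21.57 to 22.20. Mm00549170_m1 lay between 1.34 and 2.32 in the first 5 and between 0.00 and 1.23 in the others, without overlap. This shift of 1.23 log2 units was exceeded by 5 of the 153 assays measured in all samples, whose median shift was 0.29. For Mm01191142_m1 the shift was 0.82 and for Mm00500848_m1 0.67, while Mm00500226_m1 and Mm01614382_m1 moved by -0.56 and -0.71. In CEC the same shift, from the 5 lowest to the 5 highest sample medians, was -1.12 in Mm00549170_m1. There Mm01191142_m1 moved by -0.43, Mm00500848_m1 by -0.60, Mm00500226_m1 by -0.80 and Mm01614382_m1 by 1.28. The raw Ct of Mm00549170_m1 in Nissle varied less, with an SD of 0.364 cycles against 0.766 after normalization. Without normalization CEC minus Nissle was -1.64 log2 units in Mm00549170_m1, -1.49 in Mm01191142_m1, -1.48 in Mm00500848_m1, -1.30 in Mm00500226_m1 and -1.24 in Mm01614382_m1. This setting shifts every assay alike, and the panel median of the difference moved by -0.40. After normalization, over the 5 samples of each strain with the lowest sample medians, Mm00549170_m1 averaged 0.62 in CEC and 0.66 in Nissle. Over the 5 with the highest it averaged -0.50 and 1.89. In the same order Mm01191142_m1 went from -1.68 and -1.24 to -2.11 and -0.42. Mm00500848_m1 went from 1.39 and 1.82 to 0.80 and 2.49, and Mm00500226_m1 from -0.29 and 0.47 to -1.10 and -0.10. Mm01614382_m1 went the other way, from 0.18 and 1.99 to 1.46 and 1.28. The part of template amount in the spread of either strain was not tested.

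**Figure D4:**
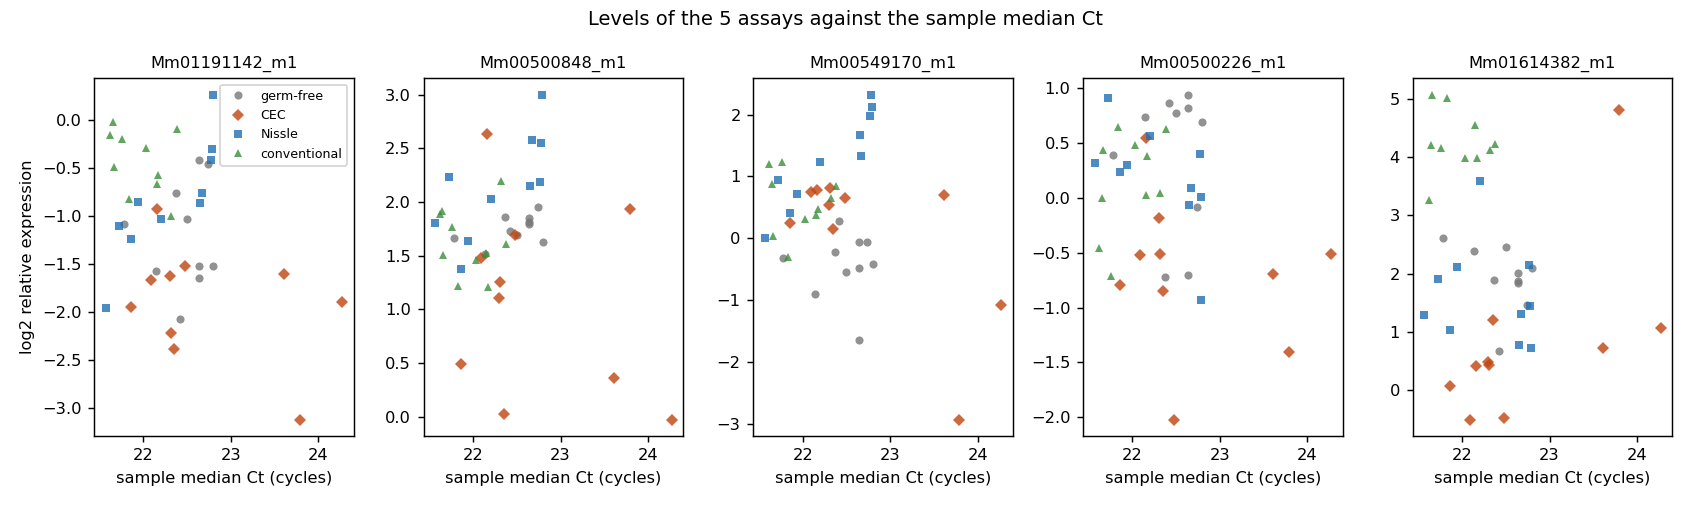
Log2 relative expression of the 5 assays (vertical axes) against the median Ct of the sample in cycles (horizontal axes), 1 point for each of the 40 samples, coloured by group. In Nissle, Mm00549170_m1 rises from 0.00 to 2.32 over sample medians of 21.57 to 22.79 cycles, and 3 CEC samples lie to the right of all others.

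The assays outside the 5 whose levels were most like theirs were sought by Pearson's r with the mean of the 5 z-scored assays, over 40 samples and 189 candidates. The closest was Mm00504022_m1 with r of 0.61, followed by Mm01276696_m1 with 0.58, values that share the sample normalizer and are a description. Mm00504022_m1 averaged 0.35 ± 0.306 in CEC (SD, n = 10), 0.62 ± 0.430 in Nissle, 0.72 ± 0.241 in germ-free and 1.05 ± 0.343 in conventional samples. Mm01276696_m1 followed the same order, from 6.69 ± 0.765 in CEC over 7.26 ± 0.746 in Nissle and 7.85 ± 0.682 in germ-free to 8.24 ± 0.358 in conventional samples. With single assays of the 5, r ran from 0.03 to 0.69 for the first and from 0.01 to 0.62 for the second, so neither followed all 5.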

How the data were processed

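Raw threshold cycles (Ct) of 224 assays in 40 samples were taken from the table as deposited by the authors. They are unnormalized, per the file headers, which also name the table a truncated example. The mirVana kit gave the RNA, and a custom TaqMan OpenArray measured it, per the labels' protocols. How the authors set thresholds and filtered wells is not given in the sources used here. Wells at a Ct of 40 (405 in 21 assays) were read as undetermined, and 156 values in 51 assays that equalled a mean of their group within 2e-06 cycles were read as filled in; both were left missing in the fits. Fits used limma 3.58.1 in R 4.3.3 (lmFit, eBayes), on assays with at least 5 measured samples in every group compared. The code was tried on deviations shuffled over all samples, with shifts added to conventional samples. That setting holds no unequal group spread and no choice of assays, so it cannot show how the tests behave under either. Plots used matplotlib 3.10.9 in Python 3.11.15. The 5 assays, the normalizer and the tests were chosen with earlier results of these data known. At most 2 further assays were named, by their correlation with the 5 among assays measured in at least 36 samples. Alternatives were other normalizers, filled-in values as deposited, undetermined wells set 1 cycle above the highest Ct, fits of the groups compared only, sample quality weights, complete assays only, a replicate block, each sample left out, and Nissle replicates 4 and 5 left out together. Leaving out CEC replicates 6 and 8 together was chosen after the data had been seen. Replicate numbers were not treated as pairing samples in the main fits. The deviations of same-numbered samples correlated above 0.1 in 7 of 10 pairs of CEC with conventional, 1 of 10 of CEC with Nissle and 3 of 10 of Nissle with conventional. Differently numbered samples were not correlated for comparison, so this check cannot decide whether a shared number marks a shared batch. Cell type markers could not be matched to assay IDs and were not used here.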

Additional observations from a re-analysis of the deposited data

Results flagged for a closer look

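Among the 20 sets of 10 values (5 assays in 4 groups), 4 held a sample far from the others of its group, where chance alone marks about 1 set in 20. In CEC, replicate 6 lay at -2.93 log2 units in Mm00549170_m1, with the next sample at -1.09, and at 4.80 in Mm01614382_m1, with the next at 1.20. Nissle replicate 5 lay at 3.59 in Mm01614382_m1, with the next at 2.15. Nissle replicate 8 lay at -0.93 in Mm00500226_m1, with the next at -0.06.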

How the results depend on the processing

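The 15 tested differences of the 5 assays kept their side of the threshold in 743 of 770 values under alternatives. Of the rest, 18 lost a call and 9 gained one, and 0 turned sign with a call. The 743 include sign turns of differences without a call. Without normalization, for example, conventional minus germ-free was 0.39 in Mm00500848_m1 and 0.28 in Mm00500226_m1, and the midpoint minus conventional was -0.45 in Mm00549170_m1. Of the 25 described differences 2 changed sign, neither above 2 standard errors. CEC minus conventional moved beyond the SD without normalization in 3 assays (-2.22, -1.30 and -1.61 against -1.46, -0.53 and -0.84 in Mm01191142_m1, Mm00500848_m1 and Mm00500226_m1). For conventional minus germ-free, the number of the 5 that changed was 3 throughout, except for 1 to 3 when samples were left out in turn. Over the panel 38 assays changed (14 higher, 24 lower), 20 without normalization (19 higher, 1 lower), 72 with sample quality weights, 24 higher and 7 lower when the 10 most stable assays set the scale, and 12 to 45 with samples left out in turn, 12 without conventional replicate 9 and 15 without replicate 10. For the midpoint minus germ-free, 1 of the 5 changed, 0 without normalization (limma, 3 at an unadjusted p under 0.05), 3 with sample quality weights, 2 without CEC replicates 6 and 8 and 1 to 2 with samples left out in turn. The panel gave 21 (13 higher, 8 lower), 8, 72, 43 and 16 to 31 in the same order, and 12 higher and 15 lower with the stable assays. For the midpoint minus conventional, 2 of the 5 changed when any sample was left out. The panel gave 69 (50 higher, 19 lower), 114 with sample quality weights, 54 to 86 with samples left out, 32 higher and 23 lower with the mean Ct, 17 against 39 on the stable assays' scale and 4 against 47 without normalization. Mm00500226_m1 passed there without normalization (-0.95, limma, adjusted p = 0.0295). The stable assays moved the panel median by 0.26 log2 units for conventional minus germ-free, by -0.36 for the midpoint minus conventional and by 0.12 for CEC minus Nissle. With the replicate block the midpoint minus conventional called 53 assays and 2 of the 5, with no call of the 5 changed; germ-free samples share only number 10 with other groups, so no block was fitted there. The number of samples limits the precision, and template amount was not measured apart from Ct.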
